A study of Mus musculus with 8 samples.

Results

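Interferon-stimulated genes are the genes that a cell switches on when it receives an interferon, the signal that infected or alarmed cells send to their neighbours. The set examined here was a list of 41 such genes, matched by gene name to the expression table of quadriceps muscle from *Nup210*-/- and *Nup210*+/+ mice. Every listed gene had 1 row, so the set made up 41 of 47643 genes. RNA sequencing of 8 libraries was available, 1 per mouse, with 4 mice of each genotype, all labelled C57BL/6, and the methods give C57BL/6J as the strain to which the knockout line was backcrossed. The *Nup210*-/- mice carried a constitutive deletion of exon 2, made with a Cre expressed from the *Hprt* locus, so that all cell types of the muscle lacked it and not only the fibers. The *Nup210*+/+ mice were the wild-type controls. Neither group was described as treated or injured, and the age and sex of these mice are not given in the sources used here. Nup210 is a membrane-anchored protein of the nuclear pore complex, and the comparison asks how its loss alters muscle gene expression.

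In the classical pathway, type I interferons bind the receptor chains Ifnar1 and Ifnar2, and the kinases Jak1 and Tyk2 phosphorylate Stat2, which joins Irf9 in a complex that binds the interferon-stimulated response element (ISRE) in promoters. Type II interferon signals through Ifngr1 and Ifngr2 to another promoter element, the gamma-activated site (GAS). In resting tissue a low tonic level of this signal keeps many of these genes detectable.

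Many promoters of the set carried the ISRE, and the sequences below show it for members that the results turn on. RefSeq promoter windows (assembly GRCm38.p6, the build of mm10; 250 bases before to 50 bases after the transcription start) were matched for 31 of the 41 members. A gene was counted once if any of its windows held the motif. The ISRE core, searched as GAAANNGAAA on both strands with overlapping matches allowed, was found for 18 of these 31 members (58.1%) and for 1079 of 27025 genes with a window (3.99%). The GAS motif, TTCNNNGAA, reads alike on both strands and was found for 9 of the 31 members (29.0%) and for 9.55% of all genes with a window. When only the 250 bases before the start were searched, which was decided after the data were seen, the ISRE core was found for 14 members (45.2%, against 3.46% of all genes with a window). Such a match is a description of the letters and not a measured binding site. The stretches are written 5′ to 3′ along the gene, with the ISRE core in capitals, which begins with TTTC where the match lies on the opposite strand.
*Stat2* (chr10:128270256-128270305, plus strand): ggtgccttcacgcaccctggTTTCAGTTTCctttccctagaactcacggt
*Isg15* (chr4:156200855-156200916, minus strand): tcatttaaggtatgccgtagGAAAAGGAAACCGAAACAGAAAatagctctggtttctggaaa
*Ifit1* (chr19:34640765-34640833, plus strand): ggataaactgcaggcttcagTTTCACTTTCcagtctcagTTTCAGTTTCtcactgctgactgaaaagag
*Ifit3* (chr19:34583353-34583436, plus strand): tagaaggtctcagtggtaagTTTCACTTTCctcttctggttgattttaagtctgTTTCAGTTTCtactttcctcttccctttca
*Oas1a* (chr5:120907526-120907565, minus strand): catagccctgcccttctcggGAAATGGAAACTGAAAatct
*Ifitm2* (chr7:140955978-140956027, minus strand): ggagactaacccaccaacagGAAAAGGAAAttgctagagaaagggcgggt
*Gbp3* (chr3:142559979-142560034, plus strand): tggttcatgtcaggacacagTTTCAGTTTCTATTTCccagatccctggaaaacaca
*Gbp7* (chr3:142530263-142530312, plus strand): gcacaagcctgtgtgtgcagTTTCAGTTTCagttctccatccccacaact
In *Isg15* 3 overlapping cores followed one another, the nearest to the start beginning 66 bases before it. *Oas1a* and *Gbp3* each held 2 overlapping cores, beginning 14 and 39 bases before the start at the nearest. *Ifit1* and *Ifit3* each held 2 separate cores, and *Stat2*, *Ifitm2* and *Gbp7* held 1 each, which in *Stat2* began 222 bases before the start. These stretches lay before the first annotated base of the gene in GENCODE M21, apart from the last few bases of those of *Ifitm2* and *Gbp3*.

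**Figure D1:**
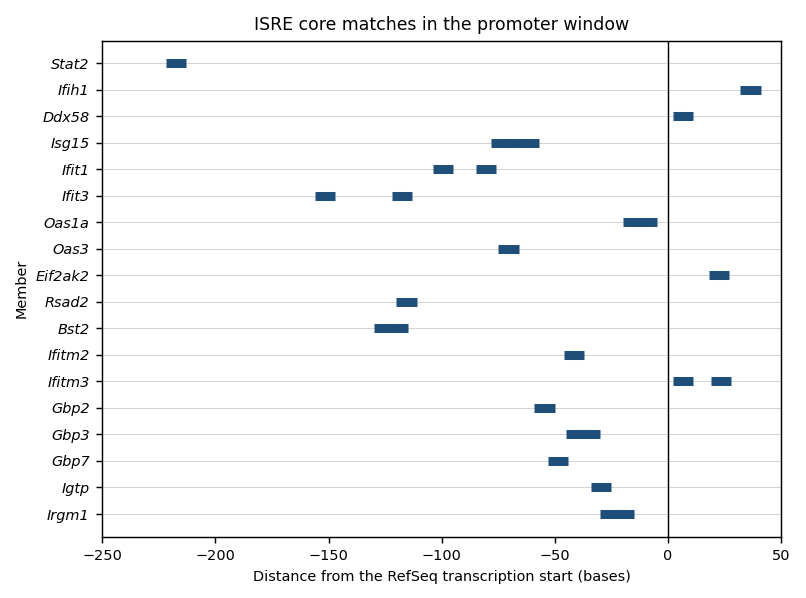
Each blue bar marks an ISRE core match in the promoter window of a member, placed by its distance in bases from the RefSeq transcription start (vertical line). The 18 members with a match are shown, and most matches lie before the start.

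Before the comparison, several facts of the libraries bear on it. The labels could not be checked by *Nup210* mRNA: it averaged 10.3 ± 1.38 TPM (SD, n = 4) in the libraries labelled *Nup210*-/- and 7.93 ± 2.06 TPM (n = 4) in those labelled *Nup210*+/+ (TPM, a transcript measure scaled to transcript length and to the library total). Its log2 fold change was 0.44 (SE 0.147, limma, adjusted p = 0.231), with the higher mean in *Nup210*-/-. TPM per gene count the whole transcript, so the absence of a single exon could not be seen in them. The tissue matched its label: 8 myofiber genes, among them *Acta1* and *Ckm*, summed to between 87671.7 and 100933 TPM in every library. *Nup210*+/+ replicate 2 held 381.69 TPM of 6 granulocyte precursor genes, against 0.31 to 2.12 TPM in the other 7 libraries. *Nup210*+/+ replicate 3 held the most macrophage, fibroblast and adipocyte marker RNA. In RNA from whole muscle, fewer cells of a type and less RNA per cell cannot be told apart.

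No member differed between the genotypes past an adjusted p of 0.05. Of the 41 members, 40 had a mean of at least 0.5 TPM and were tested, together with 14229 genes in all, by limma on log2(scaled TPM + 1), and 0 were called, where 0.112% of all genes tested were called in either direction (0.0633% lower and 0.0492% higher in *Nup210*-/-). At an unadjusted p of 0.05, 1 of 40 (2.5%) was lower in *Nup210*-/-, 0 were higher, and 14.2% of all genes tested passed in either direction. In 0 of 40 were the 4 and 4 libraries free of overlap on scaled TPM, against 9.38% of all genes tested. The estimates leaned to one side, 29 of 40 (72.5%) being lower in *Nup210*-/- against 51.3% of all genes, with a median log2 fold change of -0.09 against -0.01. That lean depended on *Nup210*+/+ replicate 3. Without that library 13 of 40 estimates were lower and the median was 0.08.

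How large a genotype difference these data leave room for can be read from the intervals. The log2 fold changes ran from -0.35 for *Ifitm2* to 0.26 for *Rtp4*, and 39 of 40 of the 95% intervals included 0. For 28 of 40 members the whole interval lay within 1.5-fold in either direction on the log2(scaled TPM + 1) scale. For low members such as *Mx2* and *Oas2*, which are among the 28, that scale leaves room for larger folds in TPM. The widest bounds were -0.95 and 0.84.

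**Figure D2:**
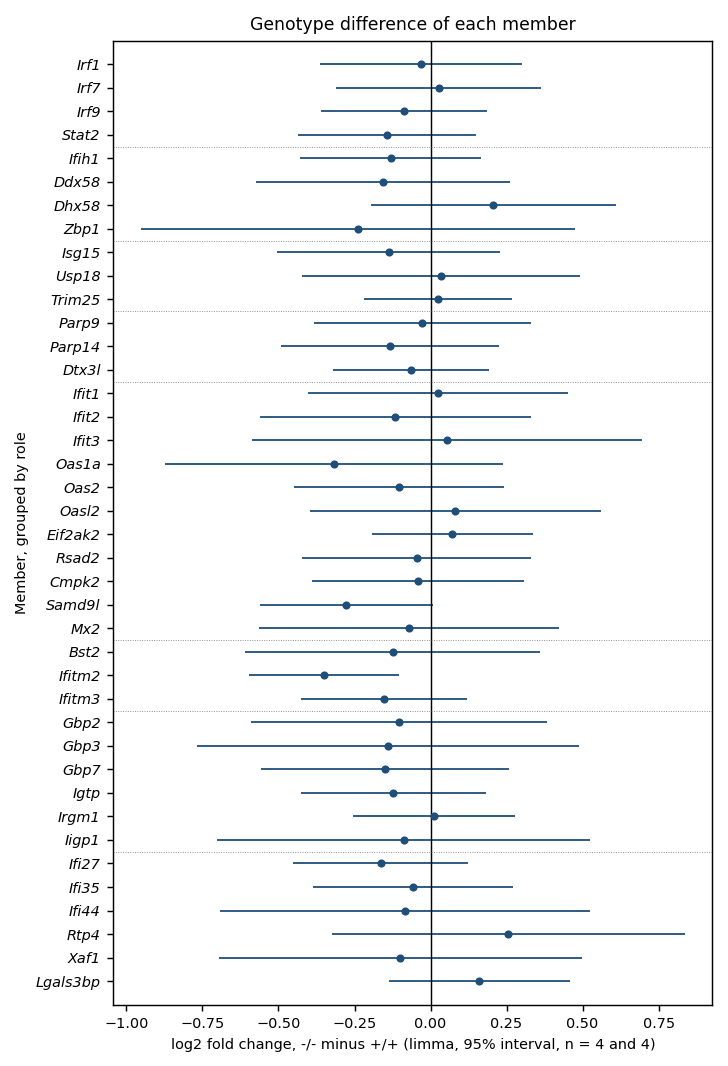
Points are the log2 fold changes of the 40 tested members, *Nup210*-/- minus *Nup210*+/+, on the log2(scaled TPM + 1) scale, and bars are 95% intervals from limma (n = 4 and 4). All intervals but that of *Ifitm2* cross 0, and 29 of 40 points lie to the left of it.

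The members moved together in single libraries. On scaled TPM, 30 of 40 members (75%) had their highest value of all 8 libraries in *Nup210*+/+ replicate 3, where 15.8% of all genes tested had theirs. In that library 39 of 40 members were above their own mean over the 8 libraries, by a median of 0.41 on the log2 scale. The median in the other libraries lay between -0.19 and 0.07. The summed TPM of all 41 members was 587.54 there and between 326.69 and 404.65 elsewhere. *Nup210*+/+ replicate 4, of the same genotype, was the lowest of 8 for 13 of 40 members (32.5%, against 11.9% of all genes), so the highest and the lowest library for this set were both labelled *Nup210*+/+. Among the *Nup210*-/- libraries, replicate 3 stood highest, with 5 members at their maximum and a median of 0.07. The median SD within a genotype was 0.148 over the members in *Nup210*-/- and 0.301 in *Nup210*+/+, or 0.194 without replicate 3. Over all genes the same medians were 0.136, 0.172 and 0.156.

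**Figure D3:**
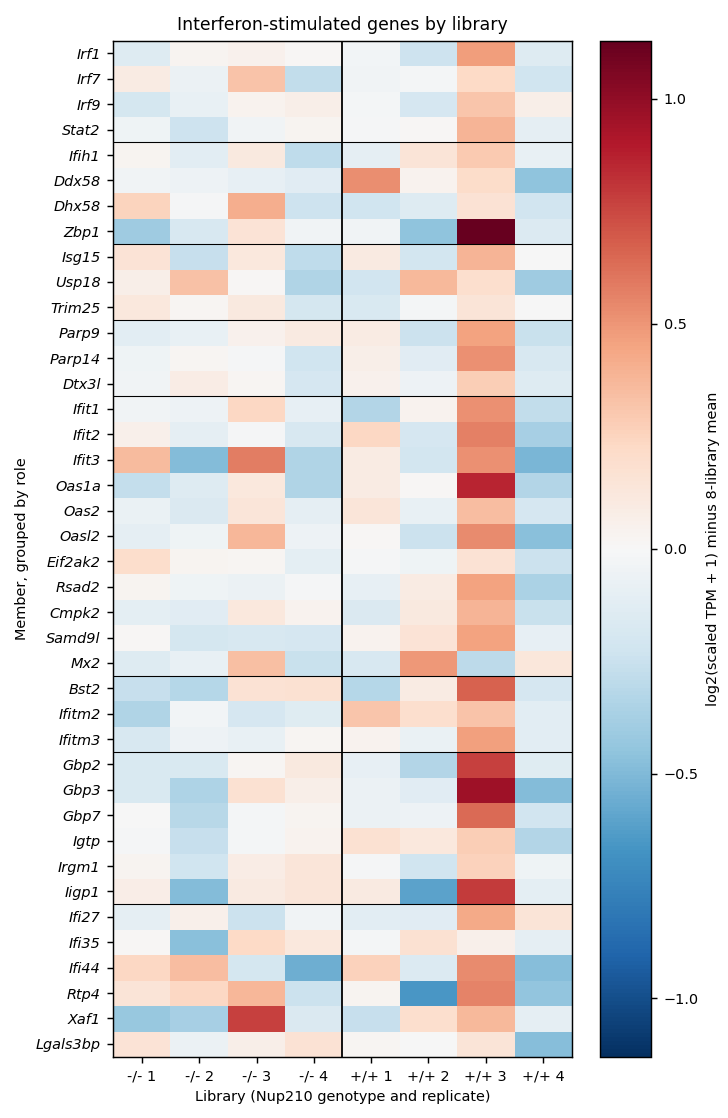
Color gives log2(scaled TPM + 1) minus the 8-library mean for each of the 40 tested members (rows, grouped by role) in each library (columns). The column of *Nup210*+/+ replicate 3 is above the mean for 39 of 40 members, and that of *Nup210*+/+ replicate 4 for 3.

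**Figure D4:**
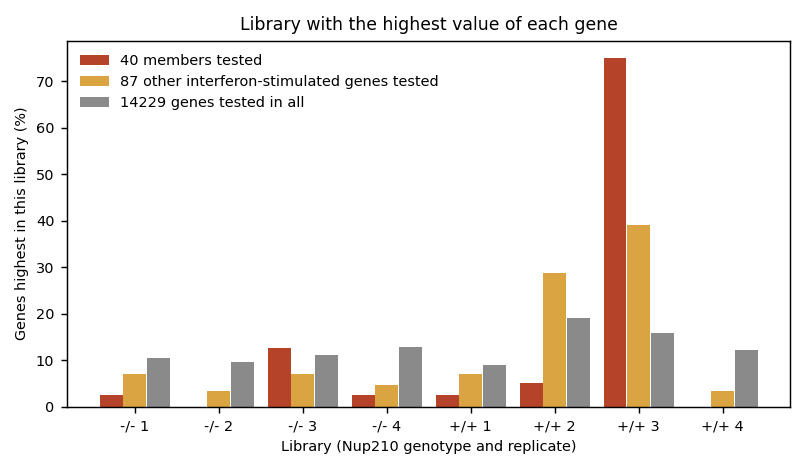
Bars give the percent of genes whose highest scaled TPM of the 8 libraries lies in each library, for the 40 members, for 87 other interferon-stimulated genes and for all 14229 genes tested. The member bar stands at 75% in *Nup210*+/+ replicate 3, against 15.8% for all genes.

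The interferon-induced GTPases, some of which coat and disrupt the vacuoles of intracellular pathogens, showed this pattern most fully. All 6 (*Gbp2*, *Gbp3*, *Gbp7*, *Igtp*, *Irgm1*, *Iigp1*) were highest in *Nup210*+/+ replicate 3, by a median of 0.70 on the log2 scale above the 8-library mean. None of the 6 passed the test for genotype at an unadjusted p of 0.05, and 5 of 6 estimates were lower in *Nup210*-/-. *Gbp2*, *Gbp3* and *Gbp7* lie side by side on chromosome 3 (142530342 to 142638008, GENCODE M21 on GRCm38). *Gbp7* (ENSMUSG00000040253) stood at 5.58, 4.51, 5.85 and 5.68 TPM in the *Nup210*-/- libraries and at 5.75, 5.84, 10.96 and 4.74 TPM in the *Nup210*+/+ libraries, in the order of the replicate numbers, which is kept throughout. Replicate 3 was the high value, and the other 3 *Nup210*+/+ libraries lay within the *Nup210*-/- range. Its log2 fold change was -0.15 (SE 0.181, limma, adjusted p = 0.736), and 0.04 without that library.

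*Gbp2* and *Gbp3*, named after their values were seen, had the same shape. *Gbp2* stood at 6.66, 6.94, 8.25 and 8.19 TPM in *Nup210*-/- and at 7.69, 6.42, 16.19 and 6.91 TPM in *Nup210*+/+. *Gbp3* stood at 4.62, 4.15, 6.47 and 5.57 TPM against 5.47, 5.26, 13.33 and 3.55 TPM. In both genes 7 libraries overlapped and the eighth stood alone, at 1.65 times the next highest library for *Gbp2* and 1.84 times for *Gbp3* on scaled TPM. *Irgm1* (ENSMUSG00000046879), an immunity-related GTPase of autophagy and the most abundant of the 6, was the most even, with 15.79, 13.57, 17.37 and 16.82 TPM against 16.58, 14.24, 22.15 and 15.02 TPM. Replicate 3 of *Nup210*+/+ was again the high value, and the other *Nup210*+/+ libraries lay within the *Nup210*-/- range. The log2 fold change was 0.01 (SE 0.118, limma, adjusted p = 0.973).

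Among the 4 sensors of foreign nucleic acid, 0 passed the test and 3 estimates were lower in *Nup210*-/-. *Zbp1* (ENSMUSG00000027514, chromosome 2, 173206612 to 173218923), which binds left-handed nucleic acid and can trigger cell death, was the member that differed most between *Nup210*+/+ replicate 3 and the rest. Its TPM were 0.64, 0.94, 1.48 and 1.08 in *Nup210*-/- and 1.19, 0.64, 4.33 and 0.95 in *Nup210*+/+. The other 3 *Nup210*+/+ libraries lay inside the *Nup210*-/- range, and replicate 3 was 2.62 times the next highest library on scaled TPM. The log2 fold change of -0.24 (SE 0.316, limma, adjusted p = 0.763) became 0.10 without it.

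*Ddx58* (ENSMUSG00000040296), which encodes the RNA sensor RIG-I, was one of the 10 tested members led by another library. Its TPM were 2.96, 3.03, 2.98 and 2.7 in *Nup210*-/-, a narrow range, and 5.25, 3.47, 4.36 and 1.99 in *Nup210*+/+, where replicate 1 was highest and replicate 4 was below every *Nup210*-/- library. The log2 fold change was -0.16 (SE 0.185, limma, adjusted p = 0.729), -0.0064 without *Nup210*+/+ replicate 1 and -0.34 without *Nup210*+/+ replicate 4. *Ifih1*, the sensor MDA5, had an estimate of -0.13, and *Dhx58*, their relative LGP2, an estimate of 0.21.

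The 4 members of the signalling and transcription group, the factors that carry the signal to the promoters, included 0 past the test, with estimates from -0.14 to 0.03. *Irf1* (ENSMUSG00000018899), a transcription factor induced chiefly by type II interferon, stood at 5.69, 6.83, 7.04 and 6.38 TPM in *Nup210*-/- and at 6.78, 5.80, 10.94 and 5.76 TPM in *Nup210*+/+. Only replicate 3 of *Nup210*+/+ left the common range. *Stat2* (ENSMUSG00000040033), whose product forms the ISRE-binding complex with Irf9, stood at 2.21, 1.92, 2.38 and 2.37 TPM against 2.50, 2.58, 3.94 and 2.13 TPM. Their log2 fold changes were -0.03 (SE 0.147, limma, adjusted p = 0.945) and -0.14 (SE 0.129, limma, adjusted p = 0.636). *Irf9*, the DNA-binding partner, had an estimate of -0.09 and was also highest in *Nup210*+/+ replicate 3. *Irf7*, the factor that amplifies type I interferon production, had an estimate of 0.03 and was highest in *Nup210*-/- replicate 3.

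In the ubiquitin-like modification group, 0 of 3 passed the test. *Isg15* (ENSMUSG00000035692), the ubiquitin-like protein that is attached to other proteins after interferon, stood at 2.88, 2, 2.95 and 1.85 TPM in *Nup210*-/- and at 2.97, 2.22, 4.21 and 2.50 TPM in *Nup210*+/+. The genotypes overlapped, and only 1 library exceeded 3 TPM. Its log2 fold change was -0.14 (SE 0.163, limma, adjusted p = 0.729), and -0.03 without *Nup210*+/+ replicate 3. *Trim25* (ENSMUSG00000000275), a ubiquitin ligase that activates RIG-I, stood at 4.23, 4.07, 4.46 and 3.19 TPM against 3.59, 4.11, 5.17 and 3.85 TPM, with a log2 fold change of 0.02 (SE 0.108, limma, adjusted p = 0.942). *Usp18*, which removes Isg15 from proteins and damps the receptor, had an estimate of 0.03.

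*Parp14*, *Dtx3l* and *Parp9* form a cluster on chromosome 16 (35832874 to 35972605) and encode ADP-ribosyltransferases and a ubiquitin ligase that act together after interferon. All 3 were highest in *Nup210*+/+ replicate 3 and 0 passed the test. *Parp9* (ENSMUSG00000022906) stood at 4.57, 4.92, 5.55 and 5.40 TPM in *Nup210*-/- and at 5.91, 4.50, 8.62 and 4.12 TPM in *Nup210*+/+. *Parp14* (ENSMUSG00000034422) stood at 2.55, 2.85, 2.81 and 2.13 TPM against 3.08, 2.59, 5.01 and 2.27 TPM. In both genes replicate 3 of *Nup210*+/+ lay apart and replicates 2 and 4 lay among or below the *Nup210*-/- values. The log2 fold changes were -0.03 for *Parp9* (SE 0.158, limma, adjusted p = 0.954) and -0.13 for *Parp14* (SE 0.158, limma, adjusted p = 0.733). *Parp9* shares exon sequence with *Dtx3l* on the opposite strand and *Parp14* overlaps *Gm49730* on the same strand. Libraries kept strand, but the strand setting of the counting is not given in the sources used here.

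The largest group held 12 RNA-directed and other antiviral effectors, of which 11 were tested and 0 passed. Of these, 8 were highest in *Nup210*+/+ replicate 3 and 7 were lowest in *Nup210*+/+ replicate 4. *Oas1a* (ENSMUSG00000052776), an oligoadenylate synthetase that activates RNase L, stood at 0.56, 0.72, 1.08 and 0.48 TPM in *Nup210*-/- and at 1.07, 0.97, 2.77 and 0.50 TPM in *Nup210*+/+. The genotypes overlapped, with replicate 3 of *Nup210*+/+ at 2.29 times the next highest library on scaled TPM. Its log2 fold change was -0.32 (SE 0.245, limma, adjusted p = 0.581), the largest of the group. It was -0.08 without *Nup210*+/+ replicate 3 and -0.48 without *Nup210*+/+ replicate 4. In GENCODE M21, 47.6% of the 75-base stretches of its transcripts also occur in *Oas1g*, so its TPM depend on how reads were divided between the genes.

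*Ifit3* (ENSMUSG00000074896), one of the proteins that hold back foreign RNA from translation, was the most abundant of the group and varied widely within both genotypes. Its TPM were 7.63, 4.01, 9.63 and 4.32 in *Nup210*-/- and 6.75, 5.32, 10.27 and 3.79 in *Nup210*+/+. Replicate 3 was the highest library of each genotype, and the log2 fold change was 0.06 (SE 0.284, limma, adjusted p = 0.949). It shares 41.1% of its stretches with *Ifit3b*. Its neighbours *Ifit1* and *Ifit2* on chromosome 19 (34550694 to 34650009) had estimates of 0.03 and -0.12 and were highest in *Nup210*+/+ replicate 3.

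*Oas3* (ENSMUSG00000032661) was the 1 member that did not reach the minimum level. It was listed at 0.12, 0.04, 0.05 and 0.05 TPM in *Nup210*-/- and at 0.17, 0.16, 0.16 and 0.13 TPM in *Nup210*+/+. All 4 *Nup210*+/+ values were higher, with an exact permutation p of 0.0286 (two-sided, n = 4 and 4), the smallest that 70 labelings can give. At these levels the number of reads is unknown and may be very small. *Samd9l*, a translation-blocking restriction factor, came nearest to the unadjusted threshold in this group, with 4.15, 3.6, 3.71 and 3.43 TPM against 4.6, 5.1, 7.07 and 3.81 TPM and a log2 fold change of -0.28 (SE 0.126, limma, adjusted p = 0.364). The remaining members ranged in estimate from -0.12 to 0.08. They included *Eif2ak2*, the kinase PKR, at 0.07, *Rsad2*, the antiviral enzyme viperin, at -0.05, and *Mx2*, a dynamin-like GTPase, at -0.07. On scaled TPM *Mx2* was the 1 member with its lowest value in *Nup210*+/+ replicate 3 (0.26 TPM), and it was highest in *Nup210*+/+ replicate 2 (1.17 TPM).

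The membrane restriction factors block the entry or release of enveloped viruses, and they held the member nearest to a genotype difference. *Ifitm2* (ENSMUSG00000060591, chromosome 7, 140954837 to 140955987) stood at 50.90, 65.94, 60.21 and 58.20 TPM in *Nup210*-/- and at 87.45, 80.99, 96.56 and 59.89 TPM in *Nup210*+/+. Replicates 1, 2 and 3 of *Nup210*+/+ were above every *Nup210*-/- library, and replicate 4 lay among them. The log2 fold change was -0.35 (SE 0.109, 95% interval -0.60 to -0.10, limma, unadjusted p = 0.0103, adjusted p = 0.209). The exact permutation test on scaled TPM gave p = 0.0571 (two-sided, n = 4 and 4). Of its 75-base stretches, 42.0% occur in other genes, 33.4% in the overlapping same-strand gene *Gm45717*. Without *Nup210*+/+ replicate 4 its log2 fold change was -0.45 and its adjusted p 0.0704 in limma.

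*Ifitm3* (ENSMUSG00000025492), its neighbour on chromosome 7 and the most abundant member, stood at 62.57, 71.03, 70.92 and 71.36 TPM against 79.32, 73.84, 116.57 and 65.98 TPM. On TPM, replicates 1, 2 and 3 of *Nup210*+/+ were above every *Nup210*-/- library, replicate 3 by the most, and replicate 4 lay inside the *Nup210*-/- range. The log2 fold change was -0.15 (SE 0.121, limma, adjusted p = 0.589), and -0.02 without *Nup210*+/+ replicate 3. *Bst2*, the tetherin that holds budding virus at the cell surface, stood at 11.78, 11.73, 17.06 and 15.99 TPM against 12.22, 16.71, 27.62 and 12.51 TPM, and its estimate was -0.12.

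**Figure D5:**
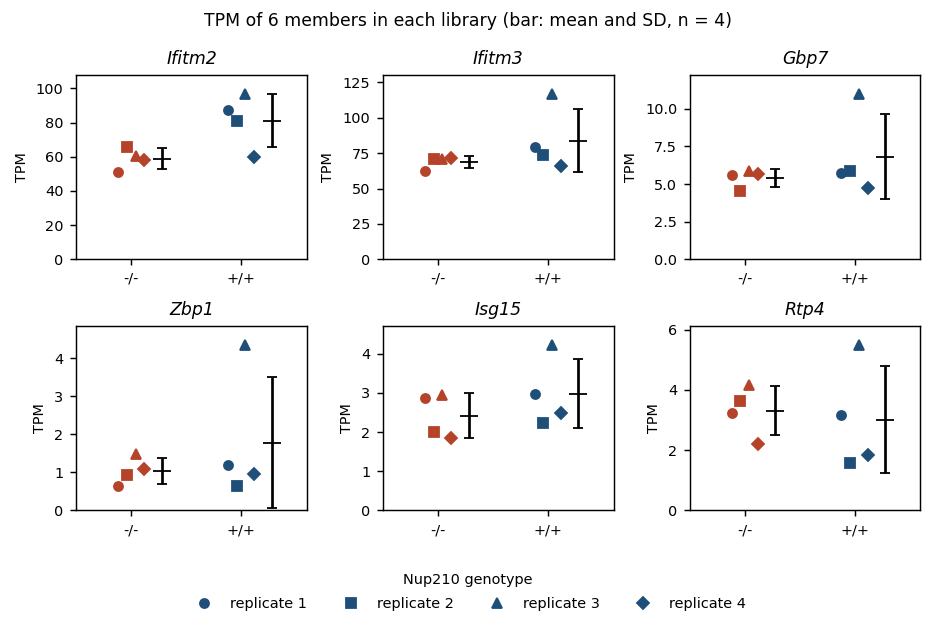
TPM of *Ifitm2*, *Ifitm3*, *Gbp7*, *Zbp1*, *Isg15* and *Rtp4* in each library, with marker shape giving the replicate number and bars the mean and SD (n = 4 per genotype). In each panel the highest point is *Nup210*+/+ replicate 3, at 96.56 TPM for *Ifitm2* and 4.33 TPM for *Zbp1*.

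Among the 6 other induced genes, 0 passed the test. *Rtp4* (ENSMUSG00000033355), a receptor transporter that damps the interferon response, had the highest estimate of the set. Its TPM were 3.22, 3.64, 4.17 and 2.22 in *Nup210*-/- and 3.15, 1.58, 5.47 and 1.84 in *Nup210*+/+. The *Nup210*+/+ values reached both above and below those of *Nup210*-/-, and the log2 fold change was 0.26 (SE 0.257, limma, adjusted p = 0.676). It was 0.08 without *Nup210*+/+ replicate 2 and 0.48 without *Nup210*+/+ replicate 3. *Ifi27* (ENSMUSG00000064215), an abundant mitochondrial protein gene, stood at 44.34, 51.54, 42.60 and 45.64 TPM against 47.41, 47.59, 76.52 and 53.13 TPM, with a log2 fold change of -0.16 (SE 0.127, limma, adjusted p = 0.584). *Xaf1*, a pro-apoptotic gene named after its values were seen, was highest in a *Nup210*-/- library, with 2.80, 3.05, 8.1 and 3.5 TPM against 3.54, 5.24, 6.59 and 3.78 TPM. It was high in replicate 3 of both genotypes.

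Members with and without an ISRE core were among those that led in *Nup210*+/+ replicate 3. Of 17 tested members with the core, 14 were highest there, as were 9 of 13 with a promoter window and no core and 7 of 10 without a window. These counts are given as a description and were not tested.

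The genes around the members were described from lists of 166 pathway genes, of which 129 were tested and 0 passed an adjusted p of 0.05 in limma. At an unadjusted p of 0.05, 4 were higher and 11 lower in *Nup210*-/-, where the shares of all genes tested were 7.0% and 7.18%, and 12 of 129 did not overlap between genotypes, against 9.38% of all genes tested. Of 15 interferon genes, 1 was listed above 0 in any library, *Ifng* at 0.09 TPM in *Nup210*-/- replicate 2, and the other 14 were listed at 0 in every library. Of the 9 tested receptor chains and kinases, 2 were lower at the unadjusted threshold. *Ifnar2* (ENSMUSG00000022971), a chain of the type I receptor, stood at 4.59, 4.46, 6.74 and 4.23 TPM in *Nup210*-/- and at 8.48, 8.92, 9.76 and 6.47 TPM in *Nup210*+/+. The ranges crossed on TPM and were apart on scaled TPM, with a log2 fold change of -0.57 (SE 0.129, 95% interval -0.86 to -0.28, limma, adjusted p = 0.124) and an exact permutation p of 0.0286 on scaled TPM. Its neighbour on chromosome 16 *Il10rb*, a chain shared by the interleukin-10 and type III interferon receptors, stood at 5.2, 5.46, 5.44 and 5.65 TPM against 7.13, 10.01, 8.33 and 6.41 TPM, without overlap, and had a log2 fold change of -0.38 (SE 0.110, limma, adjusted p = 0.194). The next genes of the same stretch, *Ifnar1* and *Ifngr2*, had estimates of -0.16 and 0.07, and *Ifngr1* on another chromosome -0.24.

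Of 15 tested genes of sensing and interferon induction, 1 was lower at the unadjusted threshold, where 7.18% of all genes tested were. It was *Tank*, an adaptor of the kinase that activates Irf3. It stood at 15.80, 16.72, 16.04 and 16.37 TPM against 18.20, 28.18, 24.68 and 22.52 TPM, without overlap, and its log2 fold change was -0.40 (SE 0.114, limma, adjusted p = 0.193). *Irf3* itself had an estimate of -0.15. In this list 2 of 15 genes, *Tank* and *Tlr3*, did not overlap between genotypes on scaled TPM, against 9.38% of all genes tested. Of 18 negative regulators, 1 was higher at the unadjusted threshold, where 7.0% of all genes tested were. It was *Trex1*, the exonuclease that clears DNA from the cytosol, with a log2 fold change of 0.25 (SE 0.0702, limma, adjusted p = 0.184).

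A further 106 interferon-stimulated genes outside the set were listed, of which 87 were tested. Their median log2 fold change was -0.06, against -0.01 over all genes, with 3 higher and 8 lower at the unadjusted threshold in limma, where 7.0% and 7.18% of all genes tested passed. In *Nup210*+/+ replicate 3 34 of the 87 (39.1%) were highest, and in *Nup210*+/+ replicate 2 25 (28.7%), against 15.8% and 19.1% of all genes. Of the 40 members 2 (5.0%) were highest in replicate 2. The estimates largest in size among those past the unadjusted threshold were those of *Ms4a6d* (-0.64), *Lgals9* (-0.53), *Fam46a* (-0.47), *Tmem140* (0.42), *Sp100* (-0.38) and *Trim34a* (-0.35), with limma adjusted p from 0.18 to 0.329.

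The library that led the set also led several lists of cell type markers. In *Nup210*+/+ replicate 3, 10 of 11 tested macrophage markers were highest of 8, and their list summed to 264.95 TPM, against 101.93 to 119.1 TPM in *Nup210*-/- and 116.37 to 160.91 TPM in the other *Nup210*+/+ libraries. Of these 11 markers, 6 were lower in *Nup210*-/- at the unadjusted threshold and 5 did not overlap between genotypes, against 7.18% and 9.38% of all genes tested. Of 8 fibroblast markers, 5 were lower at that threshold and 1 did not overlap. The fibroblast markers summed to 1481.8 TPM there, against 894.39 to 1074.65 TPM in the other *Nup210*+/+ libraries and 730.65 to 861.16 TPM in *Nup210*-/-. Of the 8, 5 were highest there, and the other 3, *Col1a1*, *Col1a2* and *Col3a1*, were highest in *Nup210*+/+ replicate 4. *Dcn* alone made up 849.9 TPM of the sum in replicate 3. All 6 adipocyte markers were highest in *Nup210*+/+ replicate 3, with 3530.21 TPM against at most 2400.16 TPM. *Car3* alone made up 2897.7 TPM of that sum, so the sum mostly follows that gene. *Adipoq* stood at 127.01 TPM there, against 43.49 to 72.37 TPM in the other libraries. Endothelial markers were nearly level, at 165.24 TPM against 138.15 to 160.5 TPM. Myelin and Schwann cell markers stood at 63.05 TPM there, against at most 58.59 TPM. Plasmacytoid dendritic cell markers, which include the member *Bst2*, stood at 56.82 TPM there, against at most 41.69 TPM. T and NK cell markers stood at 6.26 TPM in *Nup210*+/+ replicate 3 and were highest in *Nup210*+/+ replicate 2 (17.57 TPM). *Nkg7* alone made up 12.54 TPM of the sum in replicate 2. Of the 11 genes of this list 3 were tested, of which *Nkg7* and *Lck* were highest in replicate 2 and *Cd2* in replicate 3. In *Nup210*+/+ replicate 3, B and plasma cell markers summed to 11.21 TPM, the lowest of that genotype. Their highest sum was 98.92 TPM, in *Nup210*+/+ replicate 4. Of 4 tested, 2 were lower in *Nup210*-/- at the unadjusted threshold and 2 did not overlap between genotypes. Neutrophil markers were at 1.8 TPM in replicate 3 and at 19.74 TPM in replicate 2. Granulocyte precursor markers were at 0.69 TPM in *Nup210*+/+ replicate 3, and the myofiber markers at their lowest, 87671.7 TPM. The myofiber markers summed to 91804.1 to 94110.9 TPM in the other *Nup210*+/+ libraries and to 94725.1 to 100933 TPM in *Nup210*-/-. No marker of these lists was at 0 in every library. The part of these markers in the member levels was not tested.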

How the data were processed

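Quadriceps RNA of 4 mice labelled *Nup210*-/- and 4 labelled *Nup210*+/+ was poly(A)-selected, made into directional libraries and sequenced single-end. The submitters' processing notes name cutadapt 2.3, STAR 2.7.0d, RSEM 1.3.1 and mm10. The authors deposited TPM per gene and library, estimated by RSEM on Ensembl annotations, with each library summing to 1000000 within rounding. A gene with more of a library thus lowers the TPM of others, and read depth is unknown, so no counting error is given. The authors' DESeq2 test used counts that were not used here, and limma was used in its place.

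TPM were scaled by the median of ratios over the 15225 genes above 0 in all libraries. Those averaging 0.5 TPM or more over the libraries, 14229 genes, were tested as log2(scaled TPM + 1) with limma 3.58.1 in R 4.3.3 (lmFit, eBayes with trend, genotype as the only term), with Benjamini-Hochberg adjustment over all of them, at 0.05. Fold changes on this scale understate those of low genes. Single genes were also compared by two-sided exact permutation over 70 labelings. The limma script was tested on simulated data.

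The members, the pathway and marker lists and the tests were chosen with earlier results of these data known. Named by rule were members past an adjusted or unadjusted p of 0.05 or without overlap of genotypes, the member of each role group with the largest fold change and with the highest mean TPM, the receptor chains, *Irf3*, and up to 6 pathway genes per list past an unadjusted p of 0.05, the pathway genes mostly by their estimate alone. Others were named after their values were seen, and 1 gene of the rule is not reported here. *Gbp6* and *Itgam* have 2 rows each and were left out. Coordinates are from GENCODE M21 on GRCm38, and shared sequence is the percent of 75-base transcript stretches found in another gene. Python 3.11.15 and matplotlib 3.10.9 made the figures.

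Each choice was varied in turn, with pseudocounts of 0.1 and 0.5, no filter or a mean TPM of at least 1, TPM as deposited, upper-quartile scaling, eBayes without trend, library weights, the replicate number as a block and each library left out in turn. Leaving out *Nup210*+/+ replicates 2 and 3 together was added after the data were seen.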

Additional observations from a re-analysis of the deposited data

Results flagged for a closer look

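Each member's 4 TPM values in each genotype were examined for a single library far from the other 3, by Dixon's gap test at the 95% level. The median deviation of the members in each library was examined likewise, which with the 41 members made 84 groups of 4. Of these groups, 7 had such a gap, where chance alone gives about 1 in 20, and 2 of the 7 were high values in *Nup210*+/+ replicate 3. Those were *Zbp1*, with 4.33 TPM against 1.19 TPM in the next *Nup210*+/+ library, and *Gbp2*, with 16.19 TPM against 7.69 TPM. In *Nup210*-/- replicate 3, *Xaf1* stood at 8.1 TPM against 3.5 TPM in the next library and *Oasl2*, an oligoadenylate synthetase-like gene, at 5.69 TPM against 3.9 TPM. In *Nup210*-/- replicate 1, *Oas3* stood at 0.12 TPM against 0.05 TPM, both near the lower limit of the table. A low value set the library apart for the remaining genes. *Ifitm3* stood at 62.57 TPM in *Nup210*-/- replicate 1 against 70.92 TPM in the next lowest library, and *Lgals3bp*, a secreted glycoprotein gene, at 16.39 TPM in *Nup210*-/- replicate 2 against 18.37 TPM. Both of these gaps were small beside the level of the gene.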

How the results depend on the processing

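The members past an adjusted p of 0.05 numbered 0 in every alternative, and their lowest adjusted p was between 0.0704 (without *Nup210*+/+ replicate 4) and 0.464, while the count over all genes went from 0 to 84. The cause of the changes that follow was not tested, apart from those made by leaving out libraries or low genes. Members lower at an unadjusted p of 0.05 numbered 1 in the report, 2 with no filter, 2 with TPM as deposited, 0 without *Nup210*+/+ replicates 2 and 3 together, and 1 to 4 with each library left out, the 4 being *Ifitm2*, *Samd9l*, *Ddx58* and *Igtp* without *Nup210*+/+ replicate 4. Members higher numbered 0 to 1 with each library left out, the 1 being *Rtp4* without *Nup210*+/+ replicate 3. Estimates lower in *Nup210*-/- numbered 29 in the report, 13 to 35 with each library left out, the 13 without *Nup210*+/+ replicate 3, and 13 without replicates 2 and 3 together. Members without overlap of genotypes numbered 0 in the report, 1 with no filter (*Oas3*) and 3 without replicates 2 and 3 together. They numbered 0 to 4 with each library left out, the 4 without *Nup210*+/+ replicate 4. The share of all genes without overlap was not computed for these alternatives. Pathway genes higher at an unadjusted p of 0.05 numbered 4 in the report, 0 with TPM as deposited, 2 without the eBayes trend and 2 to 5 with each library left out. Those lower numbered 11 in the report and 9 to 28 with each library left out, 21 without *Nup210*+/+ replicate 1 and 28 without *Nup210*+/+ replicate 4. Over all genes, 2017 of 14229 passed an unadjusted p of 0.05 in either direction in the report. That count was 1750 of 14219 without *Nup210*+/+ replicate 1 and 2681 of 14243 without *Nup210*+/+ replicate 4. Members highest in *Nup210*+/+ replicate 3 numbered 34 of 40 (85.0%, against 33.7% of all genes) with TPM as deposited and 28 (70.0%, against 13.7%) with upper-quartile scaling. TPM as deposited moved the median of all genes to -0.08.

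Of 30 named genes in the fit, 21 had the same sign in every alternative. With TPM as deposited, *Trim25* was at -0.053, *Ifit3* at -0.028, *Irgm1* at -0.078 and *Ifngr2* at -0.021. Without replicates 2 and 3 of *Nup210*+/+ together, *Irf1* was at 0.073, *Parp9* at 0.067, *Gbp7* at 0.067 and *Ifngr2* at -0.0022. With each library left out, the log2 fold change went from -0.11 to 0.12 for *Irf1*, -0.43 to 0.10 for *Zbp1*, -0.028 to 0.093 for *Trim25*, -0.22 to 0.017 for *Parp14*, -0.12 to 0.12 for *Parp9*, -0.13 to 0.24 for *Ifit3*, -0.25 to 0.039 for *Gbp7*, -0.061 to 0.10 for *Irgm1* and -0.022 to 0.12 for *Ifngr2*.

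Whether same-numbered libraries shared more than a number is not given in the sources used here. Over all genes tested, the correlations of their deviations from the genotype means were -0.033, 0.0054, 0.019 and 0.086. Of the 4 *Nup210*-/- libraries, 1 correlated best with its own number. With the replicate block, the median log2 fold change of the members was -0.09, their lowest adjusted p was 0.321 and limma called 0 of all genes tested in place of 16. Depth is unknown, and single values near 0, such as those of *Oas3*, cannot be given a counting error.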
